A study of Homo sapiens with 6 samples.

Results

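The interleukin and colony stimulating factor genes examined here were CSF1, IL6, IL11, LIF, IL1A, IL1B, IL18, IL7, IL15 and IL32, selected by their symbols in the deposited expression tables. All 10 were found, each as 1 row among the 29889 genes of the count table. Poly(A) RNA was sequenced from A549 cells, a human lung adenocarcinoma cell line, 48 h after Lipofectamine 2000 transfection. The CELF6-OE group received a pIRES-hrGFP-1a plasmid that carried CELF6, an RNA-binding protein of the CELF family, and the Control group received the empty plasmid. Both groups were therefore transfected, and untransfected cells were not analysed here. Each group had 3 biological replicates, and the share of cells that took up the plasmid was not given in the sources used here.

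Counts on genes summed to 33748328 to 35413404 per CELF6-OE library and to 36422617 to 37920700 per Control library. The 3 CELF6-OE libraries held 18646, 20789 and 11571 counts of CELF6, and each Control library held 0, which allows up to 3. Epithelial markers ranged widely in level. KRT8 had a mean FPKM of 1860 in CELF6-OE and 2530 in Control, whereas CDH1 had 3.58 and 10.8. For EPCAM the means were 1.03 and 1.34. The lung lineage markers SFTPB, SFTPC and NKX2-1 had at most 6 counts in a library, and NAPSA had 17 to 54. FPKM is the number of fragments scaled to transcript length and to the depth of the library. Of the 12 epithelial markers listed, 9 were tested and 4 fell (KRT8, KRT18, KRT19 and CDH1), whereas 11.5% of all tested genes fell. The summed FPKM of the list was lower in CELF6-OE (7620 to 9110) than in Control (9500 to 9910). For 17 leukocyte markers the summed FPKM was 4.23 to 4.72 among Control libraries and 4.35 to 5.66 among CELF6-OE libraries, most of it from CD14, and 1 of 4 tested genes fell (ITGAM). PTPRC, the pan-leukocyte marker, had 2 counts in Control replicate 1 and 0 in the other libraries, and 5 of the 17 genes were not listed at all. For 9 fibroblast and endothelial markers the summed FPKM was at most 0.51, and 1 of 2 tested genes fell (PECAM1, from 11, 17 and 15 counts in Control to 3, 3 and 5, which passed the filter on low counts only through Control). The calls of KRT18, KRT19, ITGAM and PECAM1 were lost without Control replicate 2 (log2 fold changes of -0.34, -0.22, -0.67 and -1.72) and without CELF6-OE replicate 2, that of PECAM1 also without CELF6-OE replicate 1 (-1.74), and that of KRT19 without any 1 CELF6-OE replicate or with the replicate number as a block (-0.22). Their part in the results below was not tested.

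Interleukins and colony stimulating factors are signalling proteins through which epithelial and immune cells act on one another. Their genes are generally kept low and are switched on by inflammatory transcription factors such as NF-kB, AP-1 and the interferon-activated factors. Many of their mRNAs are short-lived because AU-rich elements in the 3′ untranslated region (3′ UTR) recruit decay proteins. Several of the proteins are also held in check after translation, by cleavage of a precursor or by a secreted decoy that binds the ligand.

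The sequence just before the transcription start is shown for IL6 and IL32, which fell in CELF6-OE, and for IL11, which did not pass the test. Promoters were taken from RefSeq (GRCh38.p14) and held 250 bases before and 50 after the start. Entries were found for 5 of the 10 genes (IL6, IL11, IL1A, IL1B and IL32), and those of CSF1, LIF, IL18, IL7 and IL15 were not analysed here. The last 130 bases before the start are printed 5′ to 3′ on the strand of the gene, and capitals mark matches to the motifs searched. They cover chr7:22727070-22727199 (plus strand) for IL6, chr16:3065273-3065402 (plus strand) for the upstream of 2 IL32 starts, and chr19:55370464-55370593 (minus strand) for IL11.
IL6: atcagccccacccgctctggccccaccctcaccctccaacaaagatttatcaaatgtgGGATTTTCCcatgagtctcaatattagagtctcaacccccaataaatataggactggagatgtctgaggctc
IL32: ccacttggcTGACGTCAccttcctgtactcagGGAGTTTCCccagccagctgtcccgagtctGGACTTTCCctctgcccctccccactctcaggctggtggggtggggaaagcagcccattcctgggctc
IL11: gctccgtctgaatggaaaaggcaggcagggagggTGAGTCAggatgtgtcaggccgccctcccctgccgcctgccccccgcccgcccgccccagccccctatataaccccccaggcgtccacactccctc

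The motifs were searched on both strands over the whole windows. An NF-kB motif (GGANTTTCC) lay at bases -72 to -64 of IL6, counted from -1 just before the start. The upstream IL32 start had matches at -98 to -90 and at -68 to -60. Of 35116 promoter windows of the same length, 1.64% held this motif. The same IL32 window also held the cyclic AMP response motif TGACGTCA at -121 to -114, which 1.85% of the windows held. The window of the other IL32 start held none of the motifs searched. IL11 held the AP-1 motif TGANTCA at -96 to -90, against 7.71% of all windows. Both windows of IL1A also held it, but these windows overlap and the matches are the same sites. An interferon response half-site (GAAANNGAA, 8.11% of the windows) was found in IL6 after the start, and a STAT motif (TTCNNNGAA, 7.66%) in IL1B. TATAAA (11.5%) was found only in IL1A among the 5 genes, at -239 to -234 of the first of its starts. None of the printed matches overlapped another. A match describes letters in the window, and binding of a factor was not measured.

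The 3′ UTR is shown because it holds the AU-rich pentamer ATTTA, the core of the element that decay factors bind. In the reference (MANE Select) transcripts of GENCODE v44, IL6 had 6 pentamers in 425 bases, or 14.1 per kb, and IL1B had 6 in 610 bases, or 9.84 per kb. IL11 had 9 in 1625 bases, or 5.54 per kb. The median over 12752 tested genes was 1.71 per kb, and 73.6% of their 3′ UTRs held at least 1 pentamer. CSF1 with 1.86 per kb and LIF with 2.19 per kb lay near that median, and IL18 and IL32 held none in 336 and 175 bases. The densest 30 bases of 4 genes follow, 5′ to 3′ on the transcript strand as DNA, with ATTTA in capitals. They lie at chr7:22731704-22731733 for IL6, chr19:55365943-55365972 for IL11, chr2:112829995-112830024 for IL1B and chr1:109930917-109930946 for CSF1.
IL6: tatttttaATTTAttaatATTTAaatatgt
IL11: ccagatcttATTTATTTATTTAtttcagta
IL1B: cgcttccctATTTATTTATTTAtttgtttg
CSF1: taaagtcATTTAaatatctATTTAaaagat

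A GU-rich heptamer (TGTNTGT), a motif of the kind bound by CELF proteins, occurred 3 times in the 3′ UTR of IL1B and 2 times in that of IL11. The 3′ UTRs of CSF1, IL6, LIF, IL1A, IL18, IL7, IL15 and IL32 held none. Of the 12752 3′ UTRs, 56.8% held at least 1.

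The 10 genes spanned a wide range of levels in A549 cells. IL18, a cytokine that is stored as an inactive precursor, was the highest at an FPKM of 78.92 to 86.22 over the 6 libraries, and it made up 62% of the summed mean FPKM of the 10 genes. In Control, IL18 was followed by IL32 (15.22 to 18.25), CSF1 (15.1 to 16.59) and LIF (13.31 to 15.57), each of which overlapped the next. Below them stood IL6 (4.27 to 4.7), IL11 (2.82 to 3.68) and IL15 (0.82 to 1.06), which did not overlap one another. In CELF6-OE, LIF (13.49 to 15.17) and IL32 (12.29 to 14.85) overlapped, and CSF1 (9.32 to 11.1) lay under both. IL11 (3.51 to 3.82) then stood above IL6 (0.92 to 1.76) and IL15 (0.69 to 0.82), again without overlap. Thus IL6 ranked above IL11 in each Control library and under it in each CELF6-OE library. IL1A, IL1B and IL7 were at an FPKM of at most 0.42 in every library, and within each group neighbours among these 3 overlapped. In all, 5 of 9 neighbouring pairs in Control and 6 of 9 in CELF6-OE did not overlap.

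**Figure D1:**
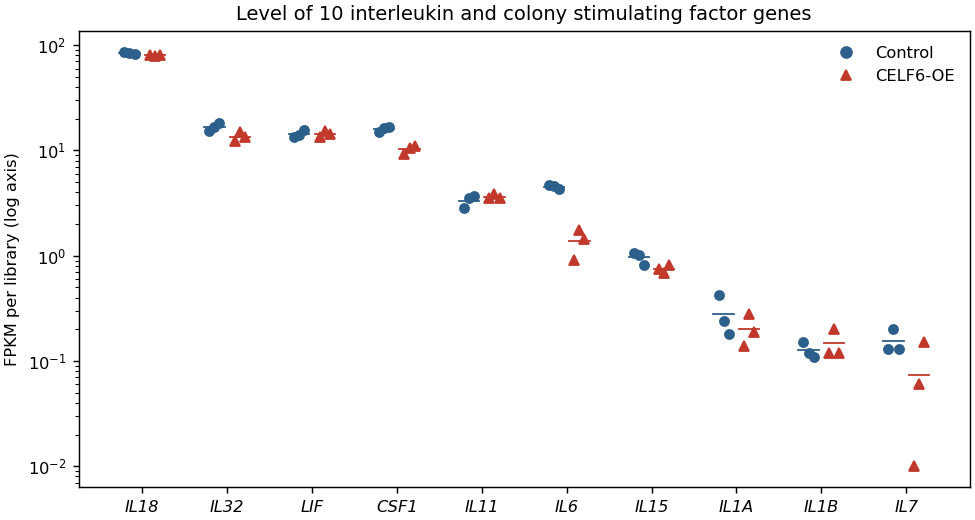
FPKM of the 10 genes in each library on a log axis, with circles for Control, triangles for CELF6-OE and short bars for group means (3 libraries each). IL18 sits at 78.92 to 86.22 in all libraries, and the groups stand clearly apart for IL6 and CSF1.

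In the comparison of CELF6-OE with Control, which asks which genes respond to CELF6 over-expression, 9 of the 10 genes passed the filter on low counts and were tested. IL6, CSF1 and IL32 fell at an adjusted p under 0.05, and 0 rose. Over all 15847 genes tested, 11.5% fell and 6.47% rose at this threshold. IL6 and CSF1 fell by at least 1.5-fold, which 5.82% of all tested genes did, while 1.35% rose by as much. None of the 9 genes rose at an unadjusted p under 0.05 in edgeR's quasi-likelihood test, nor at an adjusted p under 0.05 in DESeq2 or limma-voom. The median log2 fold change was -0.39 over the 9 genes and 0.01 over all tested genes. Every CELF6-OE value was under every Control value for 5 of the 9 (IL6, CSF1, IL32, IL15 and IL18), compared with 20.0% of all tested genes, and above them for 0, compared with 17.9%. In a bulk sample, less RNA per cell and fewer cells that make it cannot be told apart.

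**Figure D2:**
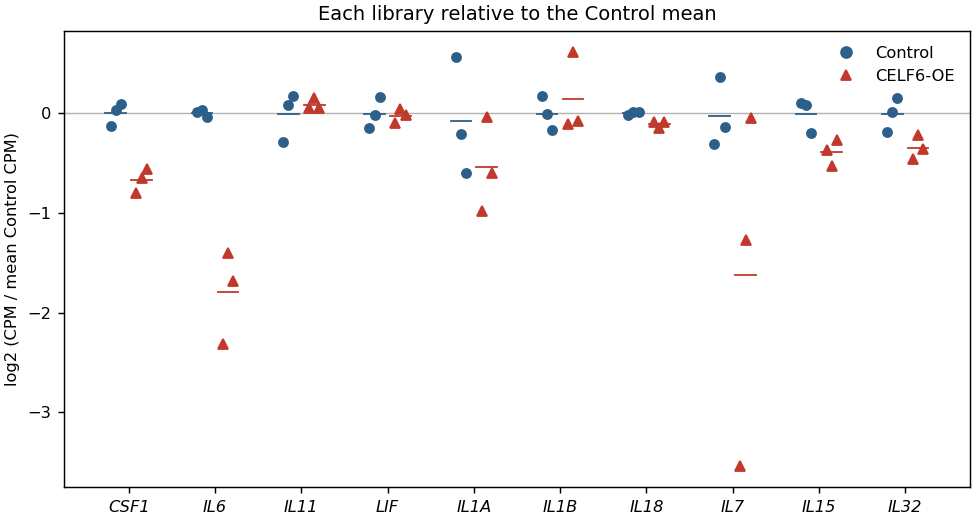
Log2 ratio of depth-scaled counts (CPM, after TMM scaling) in each library to the mean Control CPM, with circles for Control, triangles for CELF6-OE and bars for the mean of the log2 ratios. The 3 CELF6-OE libraries lie below the 3 Control libraries for CSF1, IL6, IL18, IL15 and IL32, and the lowest IL7 point rests on 1 count.

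**Figure D3:**
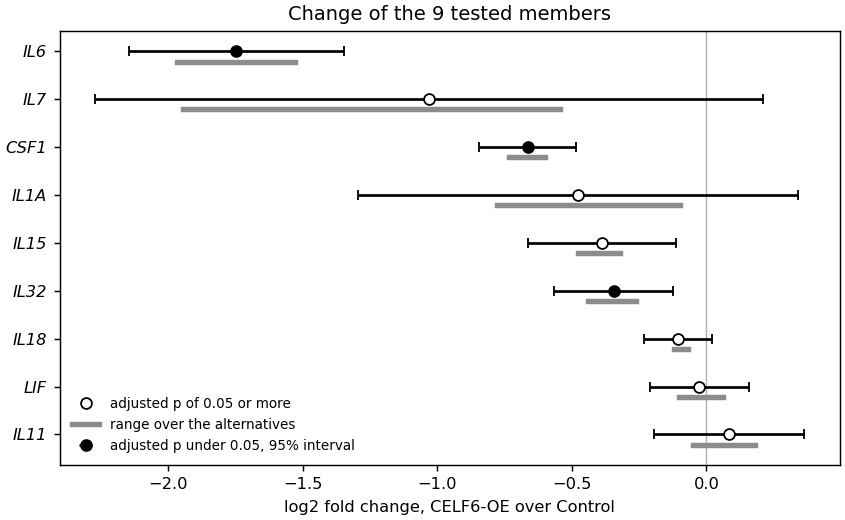
Log2 fold change of the 9 tested genes with 95% intervals from edgeR's quasi-likelihood fit, filled where the adjusted p was under 0.05, and grey bars for the range over 13 alternative fits. IL6 (-1.75), CSF1 (-0.67) and IL32 (-0.35) are filled, and the intervals of IL18, LIF, IL11, IL1A and IL7 include 0.

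CSF1, the growth factor that recruits and sustains macrophages, fell to 63.1% of its Control level. The gene (ENSG00000184371) spans chr1:109910242-109930992 on the plus strand. The Control libraries had FPKM values of 15.1, 16.31 and 16.59, and the CELF6-OE libraries 9.32, 10.53 and 11.1. No CELF6-OE value reached the Control range, and the gap between them was wider than the spread within either. The log2 fold change was -0.67 (standard error 0.08, adjusted p = 0.000264), and it lay between -0.73 and -0.60 over 13 alternatives with an adjusted p of at most 0.00297. CSF1 makes secreted and membrane-bound forms by splicing, which counts per gene do not separate.

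The study also measured CSF1 by RT-qPCR. The paper reported that RT-qPCR of its selected genes, among them CSF1 (printed as CFS1), closely matched the RNA-seq data. The CSF1 primers are shown because they read only part of the gene. They match the last of 9 exons of the reference transcript, within the 3′ UTR, at chr1:109930595-109930616 and chr1:109930756-109930774, with a product of 180 bases. Of the 9 CSF1 transcripts in GENCODE v44, 1 holds both primers, whereas the counts above sum over the gene.
CSF1 forward: GCCTTCTAGTCACAGCCTCTAT
CSF1 reverse: CCTGCTCTGATGCCACCAA

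Other genes of the colony stimulating factor system were much scarcer. IL34, the other ligand of the CSF1 receptor, had CELF6-OE counts of 3, 3 and 6 and Control counts of 21, 13 and 38, and it fell by 2.48 on the log2 scale (standard error 0.53, adjusted p = 0.00832). Its FPKM averaged 0.31 in Control, close to that of IL1A, and it passed the filter on low counts only through the Control libraries, where it was high. CSF1R itself had CELF6-OE counts of 4, 3 and 1 and Control counts of 7, 8 and 8 and did not pass the filter on low counts. CSF3, the granulocyte colony stimulating factor, fell from a mean FPKM of 1.24 ± 0.12 (SD, n = 3) to 0.58 ± 0.20, and the fitted log2 fold change was -1.11 (standard error 0.23, adjusted p = 0.00681). CSF2, which encodes the granulocyte-macrophage factor, had at most 10 counts in any library and was not tested.

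IL6, the pyrogenic and acute-phase cytokine of the IL-6 family, had the strongest change among the 10 genes. It lies at chr7:22725884-22732002 on the plus strand (ENSG00000136244). The Control libraries held 305, 310 and 289 counts and the CELF6-OE libraries 57, 112 and 87, which corresponds to FPKM values of 4.7, 4.59 and 4.27 against 0.92, 1.76 and 1.44. All CELF6-OE libraries were low, and they differed more among themselves than the Control libraries did. The fitted level was 29.8% of Control, and the fitted log2 fold change was -1.75 (standard error 0.18, adjusted p = 9.37e-05), with -1.97 to -1.53 over the alternatives and an adjusted p of at most 0.000733. The genes STEAP1B and IL6-AS1 overlap IL6 on the opposite strand and had at most 15 counts in any library, and the strand setting of the counting was not given in the sources used here.

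IL11 and LIF, the relatives of IL6 that use the same signalling receptor chain, did not pass the test, and their difference from IL6 was not tested. IL11, a cytokine linked to fibrosis and platelet formation (ENSG00000095752, chr19:55364382-55370463, minus strand), had CELF6-OE counts of 302, 336 and 295 and Control counts of 253, 328 and 344. LIF, which sustains stem cells and supports implantation (ENSG00000128342, chr22:30240453-30246759, minus strand), had 1944, 2231 and 2018 counts against 2001, 2188 and 2438. In both genes the groups overlapped. The log2 fold change of IL11 was 0.08, with a 95% interval of -0.19 to 0.36, and that of LIF was -0.03, with an interval of -0.21 to 0.16. The adjusted p was 0.681 for IL11 and 0.856 for LIF. Neither interval reached a change of the size fitted for CSF1, and the direction was not stable for either gene, since it turned for IL11 without Control replicate 1 (-0.05) and for LIF without CELF6-OE replicate 1 (0.01), without Control replicate 3 (0.06) or with the library size as the only scaling (0.02).

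The receptors of this family moved in both directions. IL6R, the ligand-binding chain for IL6, rose from a mean FPKM of 1.29 ± 0.06 to 1.73 ± 0.22 (SD, n = 3 each), and the fitted log2 fold change was 0.39 (standard error 0.11, adjusted p = 0.0339). The call was lost without CELF6-OE replicate 1 (0.43), CELF6-OE replicate 2 (0.29) or Control replicate 2 (0.43), with an adjusted p of 0.0186 to 0.164 over the alternatives. OSMR, the receptor chain for oncostatin M, fell from 18 ± 1.21 to 12.2 ± 0.83, and the fitted log2 fold change was -0.59 (standard error 0.07, adjusted p = 0.000179). The shared chain IL6ST (gp130) had a mean FPKM of 4.98 ± 0.26 in CELF6-OE and 5.41 ± 1.55 in Control (log2 fold change -0.14, adjusted p = 0.528, and 0.0374 to 0.732 over the alternatives, of which 1 passed the threshold). IL11RA and LIFR, the specific chains for IL11 and LIF, had log2 fold changes of 0.12 and -0.12 and adjusted p of 0.597 and 0.752. The other ligand of this family at an FPKM above 10, CLCF1, had a log2 fold change of -0.22 with an adjusted p of 0.0592, which passed the threshold in 1 of 13 alternatives (0.0215 to 0.186).

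IL18, the precursor of an inducer of interferon-gamma, was nearly level between the groups. It lies at chr11:112143253-112164096 on the minus strand (ENSG00000150782). The counts were 3410, 3416 and 3353 in CELF6-OE and 3815, 3891 and 3822 in Control, and the FPKM was 80.44, 78.92 and 81.29 against 86.22, 84.51 and 82.96. Although the groups did not overlap, the log2 fold change was -0.11 with a 95% interval of -0.23 to 0.02 and an adjusted p of 0.225.

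By contrast, IL18BP, the secreted decoy that neutralizes IL18, fell from 817, 858 and 883 counts to 70, 48 and 114. Its mean FPKM was 5.27 ± 0.10 in Control and 0.52 ± 0.24 in CELF6-OE (SD, n = 3 each), and the fitted log2 fold change was -3.38 (standard error 0.22, adjusted p = 8.78e-06). It was the largest decrease among the receptors and antagonists tested. The receptor chain IL18R1 had a mean FPKM of 0.27 and 0.28 with a log2 fold change of -0.09 (adjusted p = 0.842), and IL18RAP had at most 3 counts per library.

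IL1A and IL1B, the agonists of the interleukin-1 receptor, were scarce. IL1A, whose precursor is active as an alarm signal (ENSG00000115008, chr2:112773925-112784493, minus strand), had CELF6-OE counts of 11, 22 and 14 and Control counts of 34, 20 and 15. The groups overlapped, and the log2 fold change was -0.48 with a wide 95% interval of -1.30 to 0.34 (adjusted p = 0.4). IL1B, which must be cleaved by caspase-1 (ENSG00000125538, chr2:112829751-112836816, minus strand), had CELF6-OE counts of 7, 12 and 7 and Control counts of 9, 8 and 7 and was the gene left out of the test. Without the filter its log2 fold change was 0.18 (standard error 0.52, adjusted p = 0.868). For IL1A, changes inside that interval could not be told from none, whereas larger ones lay outside it.

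Among the other genes around the interleukin-1 receptor, IL1RN, which encodes the receptor antagonist, fell from 14, 16 and 19 counts to 4 in each CELF6-OE library, a log2 fold change of -1.93 (standard error 0.39, adjusted p = 0.00569). IL1RN passed the filter on low counts through the Control libraries alone. IL1R1, the signalling receptor, fell by 0.44 on the log2 scale (standard error 0.13, adjusted p = 0.0362), although the groups overlapped. This call was lost with the library size as the only scaling and without CELF6-OE replicate 1, CELF6-OE replicate 2 or Control replicate 2, with log2 fold changes of -0.41, -0.38, -0.43 and -0.43 and an adjusted p of 0.000316 to 0.143 over the alternatives. The decoy receptor IL1R2 and the accessory chain IL1RAP had log2 fold changes of -0.20 and -0.42 and adjusted p of 0.584 and 0.141, and that of IL1RAP passed the threshold in 2 of 13 alternatives (0.0414 to 0.405). SIGIRR, an inhibitory receptor of the family, was the most abundant of them, with a mean FPKM of 16.1 in CELF6-OE and 15.7 in Control and a log2 fold change of 0.00.

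A list of 12 genes around the processing and release of interleukin-1 family precursors had 11 in the count table and 5 that passed the filter on low counts. These 5 fell by at least 1.5-fold, as 5.82% of all tested genes did, and their median log2 fold change was -1.18. The list also holds genes that do not themselves cleave a precursor, such as GSDMD and PYCARD. CASP1, a protease that cleaves the IL1B and IL18 precursors, fell from 655, 573 and 478 counts to 76, 69 and 120, and the fitted log2 fold change was -2.61 (standard error 0.20, adjusted p = 1.61e-05). CARD16, a neighbour of CASP1 with a near-identical domain, had a log2 fold change of -2.30. Only uniquely located reads were counted, and how reads were assigned between CARD16 and CASP1 was not tested. CARD16 was over the low-count cutoff in 1 CELF6-OE library and in each Control library. With at least 10 counts required in every library it left the test, and 4 genes of the list fell. GSDMD, the pore through which the mature cytokines leave the cell, had a log2 fold change of -1.18, and CASP4, a sensor of lipopolysaccharide, of -1.14. PYCARD, the inflammasome adaptor, is added here after its value was seen, with a log2 fold change of -0.71 and an adjusted p of 0.0119. Its call was lost without CELF6-OE replicate 2 (-0.62), and its adjusted p was 0.000152 to 0.0623 over the alternatives. The inflammasome sensors NLRP3, AIM2 and NLRC4 had at most 2 counts in any library.

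IL15, a survival factor for natural killer and memory T cells, was lower in each CELF6-OE library but missed the threshold. It lies at chr4:141636583-141733987 on the plus strand (ENSG00000164136). The counts were 205, 191 and 217 in CELF6-OE and 303, 300 and 243 in Control, so that Control replicate 3 lay closest to the CELF6-OE libraries, and in rounded FPKM the groups touched at 0.82. The log2 fold change was -0.39 (standard error 0.12) with a 95% interval of -0.66 to -0.12 and an adjusted p of 0.0522. It passed the threshold without Control replicate 3 (-0.48), without the filter on low counts (-0.40) and with at least 10 counts in every library (-0.40), and its adjusted p was 0.0135 to 0.198 over the 13 alternatives.

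Among the receptor genes of IL15, both that passed the filter fell. IL15RA, the chain that presents IL15 on the cell surface, fell from 522, 629 and 686 counts to 181, 235 and 257, and the fitted log2 fold change was -1.38 (standard error 0.15, adjusted p = 0.000108). IL2RG, the common gamma chain shared by IL15 and IL7, fell from 122, 102 and 129 counts to 16, 23 and 25, and the fitted log2 fold change was -2.38 (standard error 0.21, adjusted p = 3.89e-05). IL2RB had at most 2 counts per library. Both fitted changes were larger than that of IL15, and the difference between the genes was not tested.

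IL7, a growth factor for lymphocytes (ENSG00000104432, chr8:78675743-78805523, minus strand), had CELF6-OE counts of 1, 5 and 11 and Control counts of 10, 16 and 11. It passed the filter on low counts through 2 Control libraries and 1 CELF6-OE library. The groups overlapped, and the log2 fold change of -1.03 had a 95% interval of -2.27 to 0.21 (adjusted p = 0.224), and this width leaves the size and the direction of a change undetermined. The opposite-strand gene ZC2HC1A overlaps IL7 over 44023 bases and had 65 to 105 counts per library. IL7R, the IL7 receptor, had at most 6 counts and was not tested.

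IL32, an intracellular and secreted inducer of other cytokines that is found in primates but not in rodents, fell modestly. It lies at chr16:3065297-3082192 on the plus strand (ENSG00000008517). The FPKM was 12.29, 14.85 and 13.4 in CELF6-OE and 15.22, 16.87 and 18.25 in Control, and the groups were apart by a margin smaller than the spread within each. The level was 78.7% of Control, and the fitted log2 fold change was -0.35 (standard error 0.10, adjusted p = 0.0356). The call rested on most of the libraries, since leaving out any 1 library other than Control replicate 1 raised the adjusted p above 0.05. The log2 fold change was then -0.29 without CELF6-OE replicate 1, -0.42 without replicate 2 and -0.35 without replicate 3, and it was -0.34 without Control replicate 2 and -0.26 without Control replicate 3. The call was also lost with the library size as the only scaling (-0.30), and the adjusted p was 0.00196 to 0.153 over the alternatives.

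Other secreted interleukins were mostly silent in these cells. Of 40 further interleukin, colony stimulating factor and related genes, 12 were not listed in the count table, which lists no gene at 0 in all libraries, and 6 passed the filter on low counts. CSF3, IL34 and EBI3 fell, whereas 11.5% of all tested genes did. IL34 left the test with at least 10 counts required in every library, and the median log2 fold change of the 6 was -0.79. EBI3, the shared subunit of the cytokines IL27 and IL35, fell from a mean FPKM of 2.74 ± 0.60 to 1.47 ± 0.17 (SD, n = 3 each), and the fitted log2 fold change was -0.94 (standard error 0.20, adjusted p = 0.00799). IL12A and IL23A, subunits of IL12 and IL23, had log2 fold changes of -0.34 and -0.64 and adjusted p of 0.27 and 0.186.

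**Figure D4:**
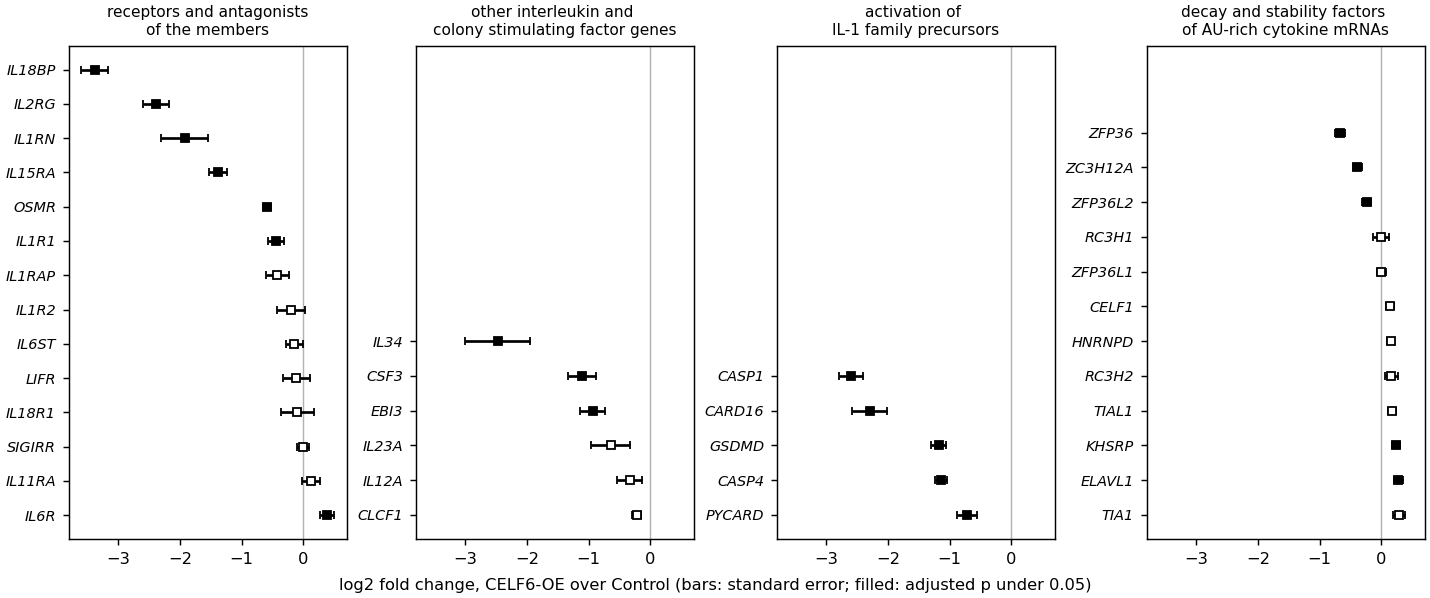
Log2 fold change with standard error for the tested genes of 4 related lists, filled where the adjusted p was under 0.05. The 5 tested genes of the list on interleukin-1 family precursors and 6 of 14 receptors and antagonists fell, whereas the decay and stability factors stayed between -0.67 and 0.28. Of all tested genes, 11.5% fell. CARD16, IL1RN and IL34 left the test with at least 10 counts required in every library.

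Across the receptors and antagonists of the 10 genes, 14 of 18 were tested, 6 fell and 1 rose, and 5 of the 6 fell by at least 1.5-fold. With at least 10 counts required in every library, IL1RN left the test and 5 fell. The median log2 fold change was -0.31. Over all tested genes, 11.5% fell, 6.47% rose and 5.82% fell by at least 1.5-fold. Factors that govern the decay or stability of AU-rich cytokine mRNAs were all expressed, and 3 of 12 fell and 2 rose, with a median log2 fold change of 0.15. ZFP36 (tristetraprolin), which promotes the decay of such mRNAs, fell from a mean FPKM of 25.5 ± 0.74 to 16.4 ± 1.06 (SD, n = 3 each), and the fitted log2 fold change was -0.67 (standard error 0.08, adjusted p = 0.000158). ZC3H12A (Regnase-1), an endonuclease that degrades IL6 mRNA, fell by 0.39 on the log2 scale (standard error 0.07, adjusted p = 0.00268). The third that fell, ZFP36L2, is named after its value was seen, with a log2 fold change of -0.24 and an adjusted p of 0.0466. Its call was lost in 6 of 13 alternatives, which were the library size as the only scaling (-0.20), the replicate block (-0.23), and the fits without CELF6-OE replicates 1 to 3 (-0.25, -0.20 and -0.26) or Control replicate 2 (-0.21), with an adjusted p of 0.00778 to 0.203 over all of them. ELAVL1 (HuR), which stabilizes such mRNAs, rose by 0.28 (standard error 0.07, adjusted p = 0.0148), and KHSRP, a decay factor, rose by 0.24 (standard error 0.06, adjusted p = 0.0247). The ELAVL1 call was lost without CELF6-OE replicate 1 (0.23) or Control replicate 2 (0.30). The KHSRP call was lost with the replicate number as a block (0.24) and without any CELF6-OE replicate (0.24, 0.21 and 0.25 without replicates 1 to 3) or Control replicate 2 (0.23), and the adjusted p over the alternatives was 0.00497 to 0.0877 for ELAVL1 and 0.00705 to 0.12 for KHSRP.

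The genes whose course over the 6 libraries was most like that of the 3 most abundant members were sought by Pearson's r of log2 CPM among the other 15846 tested genes. They were RBKS, TST and GSN for IL18 (r of 0.9998, 0.9976 and 0.9976), PPP6R2, ZMIZ2 and COL6A1 for IL32 (0.9978, 0.9974 and 0.9972), and MYO19, C9orf172 and GADD45B for LIF (0.9943, 0.9907 and 0.9905). These are descriptions over 6 points that fall into 2 groups and share their libraries, and high values arise readily when the best of many genes are taken. RBKS fell by 0.64 on the log2 scale, so a course of nearly the same shape as that of IL18 came with a larger change.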

How the data were processed

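The authors removed low-quality reads, adaptors and short reads with FASTX-Toolkit, used TopHat2 to align what was left to GRCh38, and deposited counts of uniquely located reads per gene and FPKM values rounded to 2 decimals. The library kit keeps strand, but the counting tool, its strand setting and the annotation release were not given in the sources used here.

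Counts were scaled with TMM and tested with edgeR 4.0.16 (R 4.3.3; quasi-likelihood test, prior count 0.125, Benjamini-Hochberg adjustment over all genes tested, no covariate). The 15847 genes kept by filterByExpr (minimum count 10) were tested. The filter was used because the fit without it gave infinite prior degrees of freedom, against 7.15 here. With infinite prior degrees of freedom a gene's own spread does not enter its p. Every adjusted p in the text comes from this test unless another setting is named. "Rose" and "fell" mean an adjusted p under 0.05. FPKM values served to describe levels, with mean ± SD (n = 3). An exact permutation test of 3 libraries against 3 cannot go below p = 0.1 and was not used.

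Every member, CELF6, the receptors of the members and up to 4 genes with the smallest p per list were named, and for the 3 most abundant members the 3 genes with the most similar profile. The members and gene lists were chosen with earlier results of these data known, and the 3′ UTR motifs, the primer match and the promoter pieces after the values were seen. Gene identifiers were matched to GENCODE v44 on the same chromosome for 97.1% of the rows. The test recovered 187 of 200 changed genes in simulated counts for CELF6-OE against Control (15589 genes tested) and called 7 unchanged genes. Recovery at the fold changes and count levels of the genes named here was not tested separately. Alternatives were RLE size factors, library size only, DESeq2 1.42.0, limma-voom (limma 3.58.1), 2 other filters, the p of 0.01 and fold change of 1.5 of the study's methods, a replicate block and leaving out each library. Within groups, no pair of libraries was a duplicate (chi-square per degree of freedom 7.67 to 29.3). Columns of per-sample values that were not used numbered 0. Splicing data were not analysed here.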

Additional observations from a re-analysis of the deposited data

How the results depend on the processing

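The decreases of IL6 and CSF1 kept their direction and their adjusted p under 0.05 in all 13 alternative fits, and both were called under the p of 0.01 and fold change of 1.5 of the study's methods. Between 2 and 4 of the 10 genes fell over the alternatives. Direction turned for LIF with the library size as the only scaling (0.015), and over the fits without 1 library the log2 fold change was -0.104 to 0.061 for LIF and -0.051 to 0.18 for IL11. The calls of IL32 and IL15 depended on the setting, as given above, and the cause was not tested. Counts over all genes moved most: 936 fell and 216 rose under these thresholds of the study's methods. The paper's results text instead gave an FDR under 0.05 with the same fold change. Without 1 library 1032 to 2370 fell and 281 to 1906 rose. The decreases numbered 1127 without CELF6-OE replicate 1, 1066 without CELF6-OE replicate 2 and 1032 without Control replicate 2. The increases numbered 378, 281 and 624 without CELF6-OE replicates 1 to 3, 1906 without Control replicate 1 and 287 without Control replicate 2.

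Under the thresholds of the study's methods 0 receptors rose, 1 decay or stability factor fell and 0 rose, since smaller changes are then left out by construction. Without 1 library, 0 to 1 receptors rose, and 2 to 3 decay or stability factors fell and 0 to 3 rose. With the replicate number as a block, 1570 genes fell and 720 rose, 3 of the 10 genes fell, and 1 decay or stability factor rose. Deviations from the group means correlated at -0.011, -0.021 and -0.072 between libraries of the same number, and no library correlated best with its own number. Deviations from a group mean are tied to one another, so these values cannot show whether libraries of the same number were handled together. The limit of low counts falls on IL1A, IL1B and IL7, with at most 34 counts per library. Replicates were described only as biological. The p-values set the group difference against the spread between these libraries, moderated over all tested genes.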
